A study of Mus musculus with 28 samples.

Results

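The 7 genes described here encode the core of the inflammasome and of pyroptosis: the sensors Nlrp3, Aim2 and Nlrc4, the adaptor Pycard, the caspases Casp1 and Casp4, and the pore protein Gsdmd. They were listed by name, with earlier results of these data known, and make up 7 of the 54532 genes in the count table. Counts of members called are therefore set beside the shares of all genes as a description only. An inflammasome is a protein assembly in which a cytosolic sensor, on meeting a microbial or danger signal, recruits the adaptor ASC, the product of Pycard, and through it caspase-1. Caspase-1 matures IL-1β and IL-18 and cleaves gasdermin D, whose N-terminal part forms pores in the plasma membrane and brings on the lytic death called pyroptosis, while murine caspase-11, the product of Casp4, binds intracellular LPS and cleaves gasdermin D without a sensor of the NLR family. Macrophages transcribe several of these genes only at a low level until a priming signal such as a Toll-like receptor ligand arrives, and read counts report on that priming step, not on assembly or cleavage of the proteins.

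Bulk RNA-seq was performed on 28 cultures of bone marrow-derived macrophages (BMDMs), grown for 7 days with M-CSF from the marrow of 8 to 12 week old mice that the methods give as C57/B6JB. In fresh medium with 1 mM CaCl2, cells received PBS as control, plasma-derived von Willebrand factor (VWF, the adhesive plasma glycoprotein that tethers platelets) at 10 µg/ml, or bacterial lipopolysaccharide (LPS, the ligand of TLR4) at 100 ng/ml. Control and VWF had 5 cultures and LPS 4 at each of 3.5 h and 16 h. The labels call them biological replicates without saying whether each came from its own mouse, so p values measure the spread between these cultures only.

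Total counts per culture lay between 41131209 and 77699206. Levels are given as CPM, read counts scaled to library size with TMM factors, as mean ± SD. A gene was called when its Benjamini-Hochberg adjusted p in edgeR was under 0.05 and its absolute log2 fold change over 1, among genes reaching 10 TPM, an abundance corrected for exon length, in at least 1 culture compared. The defining macrophage genes were present in every culture, with a summed level of 4430 to 26954 CPM over 7 markers. The sum was highest with VWF at 16 h (18175 CPM or more, against at most 15666 CPM in the other groups). Single markers ranged from Lyz2, at 2232 to 19348 CPM, down to Mertk, at 8.65 to 131 CPM. The summed markers of T cells and of B cells did not exceed 1.11 CPM, the mast cell genes Mcpt4 and Tpsb2 were at 0 throughout, and the summed neutrophil markers reached at most 9.27 CPM. Fibroblast markers summed to between 6.1 and 202 CPM, and their main member Col1a1 was highest in replicate 1 in 5 of the 6 groups. Dendritic cell markers summed to 13.2 to 29.4 CPM with LPS and 14 to 20.9 CPM with VWF at 3.5 h, against 0.584 to 2.88 CPM elsewhere, mainly through Xcr1, while Flt3 did not exceed 0.204 CPM. The part of these markers in the results was not tested. Control replicate 5 and LPS replicate 4 at 16 h stood apart from their groups, with an SD over genes of the log2 deviation from the group median of 0.997 and 0.719, against at most 0.428 in the other cultures. Results that rest on them are given with and without them.

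Casp1 (ENSMUSG00000025888, chr9:5298517-5307265, plus strand) and Casp4 (ENSMUSG00000033538, chr9:5308828-5336783, plus strand) are neighbours in GRCm38, separated by 1562 bases. Nlrp3 (ENSMUSG00000032691) is at chr11:59541568-59566956 and Aim2 (ENSMUSG00000037860) at chr1:173350879-173466040, both on the plus strand. Nlrc4 (ENSMUSG00000039193) is at chr17:74425438-74459142 and Pycard (ENSMUSG00000030793) at chr7:127989708-127993867, both on the minus strand. Gsdmd (ENSMUSG00000022575) is at chr15:75862327-75867408 on the plus strand. No 100-base window of a member's transcripts recurs in another gene, and 12.8% of the exon length of Pycard overlaps Gm45205 on the opposite strand, so without a stated strand setting the reads of that pair cannot be told apart.

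Promoter sequences up to the annotated gene start were taken from RefSeq (GRCm38.p6), which held 6 of the 7 genes. Those of Casp4 and Nlrp3 are shown because these genes had the largest changes with VWF, that of Casp1 because it is the neighbour of Casp4, and that of Nlrc4 because LPS moved this gene opposite to the others at 3.5 h. Capitals mark matches to the NF-kappaB consensus, the binding sequence of the transcription factor that acts below Toll-like receptors. The coordinates are chr9:5308599-5308827 for Casp4, chr11:59541319-59541567 for Nlrp3, chr9:5298267-5298516 for Casp1 and chr17:74459143-74459358 for Nlrc4, each read 5′ to 3′ on the strand of its gene.
Casp4: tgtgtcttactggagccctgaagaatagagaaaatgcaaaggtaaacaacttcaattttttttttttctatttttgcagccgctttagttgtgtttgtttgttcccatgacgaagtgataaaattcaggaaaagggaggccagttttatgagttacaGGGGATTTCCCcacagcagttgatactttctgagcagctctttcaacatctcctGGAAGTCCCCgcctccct
Nlrp3: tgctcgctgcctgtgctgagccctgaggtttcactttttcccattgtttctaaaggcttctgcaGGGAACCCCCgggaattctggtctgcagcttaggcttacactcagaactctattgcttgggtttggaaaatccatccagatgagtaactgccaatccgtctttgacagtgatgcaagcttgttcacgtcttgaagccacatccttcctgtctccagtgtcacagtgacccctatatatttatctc
Casp1: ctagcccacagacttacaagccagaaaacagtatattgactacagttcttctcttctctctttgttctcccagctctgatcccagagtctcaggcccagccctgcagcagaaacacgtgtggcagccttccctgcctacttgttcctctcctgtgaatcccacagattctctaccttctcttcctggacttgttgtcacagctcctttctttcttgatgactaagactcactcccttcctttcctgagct
Nlrc4: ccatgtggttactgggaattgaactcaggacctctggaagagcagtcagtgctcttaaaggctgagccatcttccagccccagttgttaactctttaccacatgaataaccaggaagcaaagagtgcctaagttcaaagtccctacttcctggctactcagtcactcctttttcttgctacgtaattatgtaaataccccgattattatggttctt
The Casp4 promoter held 3 matches to the consensus on either strand, of which GGGGATTTCC and GGGATTTCCC overlap and GGAAGTCCCC lies closer to the start. The Nlrp3 promoter shown held 1, GGGAACCCCC, while the window at the second RefSeq start of Nlrp3 (chr11:59542436-59542685), which lies inside the annotated gene, held none. No match was found in the windows of Casp1, Nlrc4, Pycard or Aim2, and the Aim2 window lies inside the annotated gene. Of all 32851 promoter windows in the table, 7.25% held at least 1 match and 0.143% held at least 3. The GAS motif (TTC, any 3 bases, GAA) and the ISRE core (GAAA, any 2 bases, GAAA), sought on both strands, occurred in none of these windows and in 7.02% and 2.98% of all promoters. These matches describe letters, not binding.

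After 3.5 h of VWF 6 of the 7 genes passed the adjusted p, all above the controls, and Pycard did not pass it. Nlrp3 was 8.8-fold and Casp4 6.15-fold higher, Casp1 and Aim2 rose by 2.44-fold and 2.41-fold, and Gsdmd and Nlrc4 passed the adjusted p, as did 43.6% of all genes, but not the fold threshold. Thus 4 of 7 members were called, all higher, where 14.7% of the 8200 genes tested were called and 9.1% were called higher. Their median log2 fold change was 1.27, against -0.01 over all genes. LPS for the same time called 5 of 7, all higher, against 24.5% of 8190 genes called and 12.8% called higher, with a median log2 fold change of 1.48 against -0.02. In bulk RNA, more cells expressing a gene and more RNA per cell cannot be told apart. Under scaling by library size alone, which moved the median of all genes by -0.22 for VWF and -0.55 for LPS at 3.5 h, no called member changed direction. At 16 h that shift was -0.59 for LPS, and for VWF against LPS it was 0.32 at 3.5 h and 0.46 at 16 h.

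By 16 h the treatments had separated. No member was called for VWF against control, where 8.71% of 7798 genes were, while Casp1, Casp4 and Gsdmd passed the adjusted p alone, as did 27.7% of all genes. LPS called 6 of 7 at 16 h, all higher, against 27.6% of 7994 genes called and 15.3% called higher, and the median log2 fold change was 1.68 against -0.03. Compared directly with LPS, VWF called 2 members higher and 2 lower at 3.5 h (11.4% of 7500 genes called, 4.71% higher and 6.71% lower) and 5 lower, none higher, at 16 h (25.5% of 7574 genes called, 14.5% lower). The control cultures are shared by the VWF and LPS comparisons at each time, so these comparisons are not independent of each other. Statements on overlap below have a high background. At 3.5 h the cultures of the 2 groups did not overlap in 34.7% of all genes for VWF against control. For LPS against control it was 54.1%, and for VWF against LPS 39.1%. At 16 h these shares were 25.9%, 47.1% and 50.7%.

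**Figure D1:**
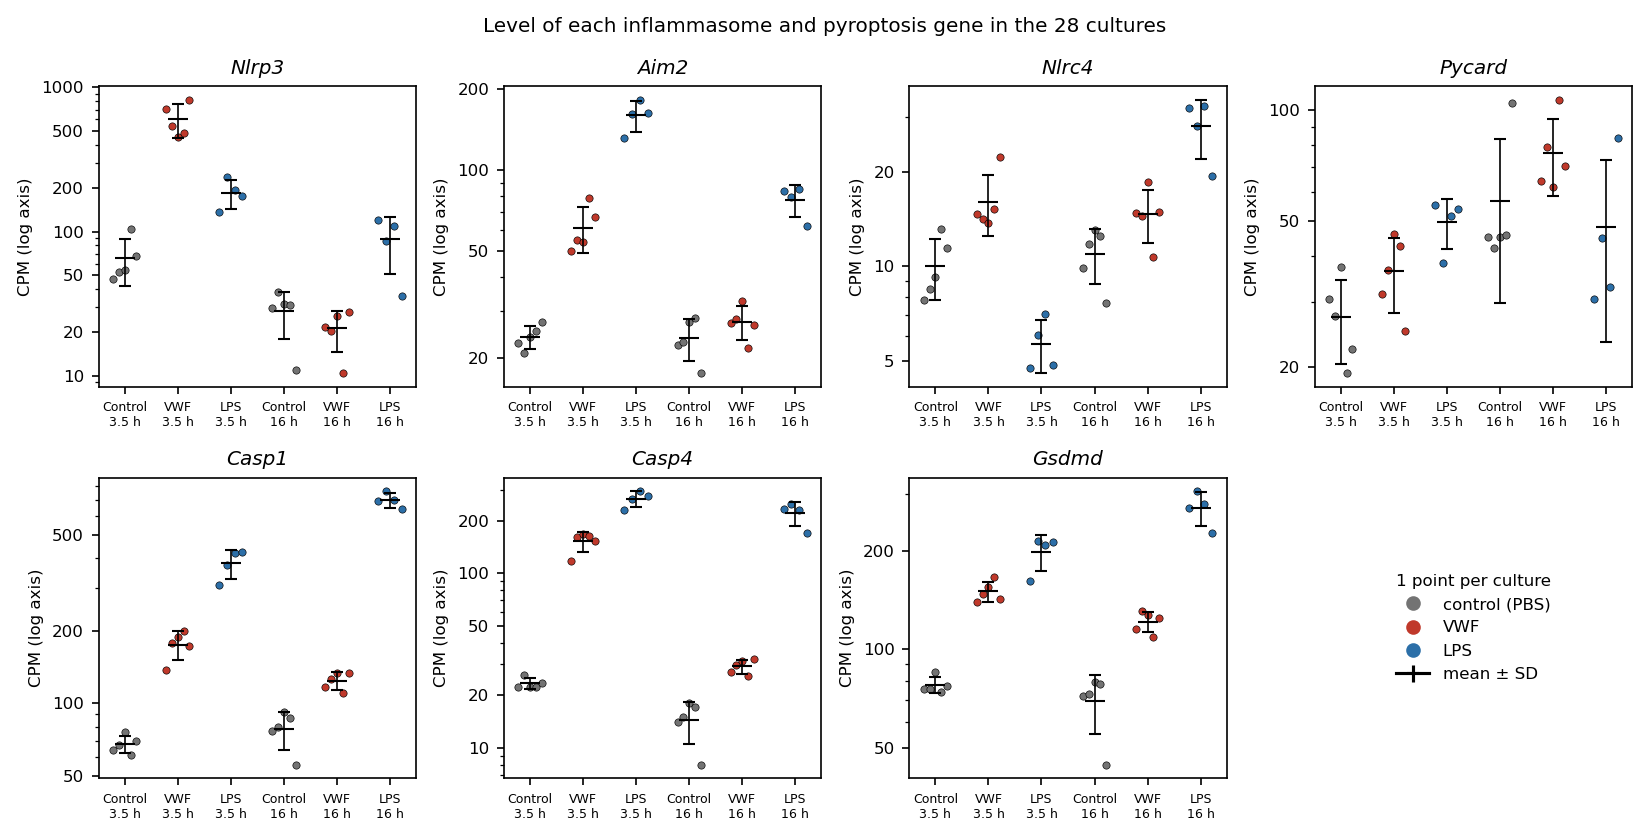
Level of each gene (CPM, log axis) in the 28 cultures, 1 point per culture with the group mean and SD as bars, for control, VWF and LPS at 3.5 h and 16 h. Nlrp3 was highest with VWF at 3.5 h (449 to 821 CPM), and Casp1 and Gsdmd with LPS at 16 h. For Pycard, groups next to each other in order of mean level overlapped.

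Nlrp3 encodes the sensor that responds to potassium efflux and many forms of cell damage, and its transcript is a classical target of priming. The control cultures at 3.5 h had 46.7, 52.4, 54.4, 104 and 67.5 CPM. With VWF the values were 713, 542, 449, 482 and 821 CPM. With LPS they were 137, 237, 194 and 175 CPM. All VWF cultures exceeded all LPS cultures, which in turn exceeded all controls. The log2 fold change was 3.14 (SE 0.26) for VWF and 1.48 (SE 0.23) for LPS, with adjusted p of 1.65e-06 and 0.000164 (edgeR quasi-likelihood test). VWF against LPS gave 1.69 (SE 0.23, edgeR adjusted p = 0.00014), so Nlrp3 was 3.22-fold higher with VWF. Under library size scaling the LPS value was 0.93 and below the fold threshold.

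At 16 h this order was turned around. Nlrp3 had 29.5, 37.8, 31.5, 30.9 and 11 CPM in controls, 21.9, 20.5, 26, 10.4 and 27.8 CPM with VWF, and 120.4, 86.1, 109.6 and 35.9 CPM with LPS. The VWF and control ranges overlapped, and every LPS culture was above every VWF culture. VWF against control was -0.52 (SE 0.32, edgeR adjusted p = 0.291), with an interval from -1.16 to 0.12. LPS against control was 1.61 (SE 0.40, edgeR adjusted p = 0.00679), although LPS replicate 4 lay within the control range, and 1.04 with an adjusted p of 0.0638 under library size scaling. VWF against LPS was -2.08 (SE 0.37, edgeR adjusted p = 0.000756). Without the 2 cultures that stood apart, the 3 values were -0.72, 1.67 and -2.34 on the log2 scale, with edgeR adjusted p of 0.027, 2.83e-06 and 5.07e-05, respectively. Within the VWF cultures Nlrp3 fell by 4.77 on the log2 scale from 3.5 h to 16 h (SE 0.30, edgeR adjusted p = 1.08e-07), to 0.0366 of its earlier level.

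Aim2 encodes the sensor of cytosolic double-stranded DNA. At 3.5 h it had 22.7, 20.8, 24, 25.1 and 27.3 CPM in controls, 50.2, 55, 54.3, 79.1 and 67 CPM with VWF, and 131, 162, 183 and 164 CPM with LPS. The 3 groups did not overlap, with LPS highest. The log2 fold change was 1.27 (SE 0.13) for VWF and 2.69 (SE 0.10) for LPS against control, and -1.40 (SE 0.14) for VWF against LPS, with edgeR adjusted p of 8.17e-06, 2e-09 and 1.36e-05. At 16 h the controls had 22.3, 23.1, 27.2, 28.1 and 17.6 CPM, the VWF cultures 27.1, 28, 32.7, 21.8 and 26.6 CPM, and the LPS cultures 83.5, 79.4, 84.9 and 61.8 CPM. The VWF values then overlapped those of the controls (0.09, SE 0.14, interval -0.18 to 0.36, edgeR adjusted p = 0.709), while every LPS culture was above both groups. LPS against control was 1.68 (SE 0.15, edgeR adjusted p = 8.13e-06), or 3.2-fold, and VWF against LPS -1.54 (SE 0.13, edgeR adjusted p = 4.66e-06). Between 3.5 h and 16 h of VWF, Aim2 fell by 1.11 on the log2 scale (SE 0.14, edgeR adjusted p = 2.81e-05).

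Nlrc4 encodes the sensor that, with NAIP proteins, responds to bacterial flagellin and type III secretion proteins. It had the lowest level per kilobase of exon of the 7 genes in every group. At 3.5 h the controls had 7.81, 8.46, 9.23, 13.2 and 11.4 CPM, the VWF cultures 14.7, 14.1, 13.7, 15.3 and 22.3 CPM, and the LPS cultures 4.72, 6.03, 7.05 and 4.84 CPM. All VWF cultures lay above, and all LPS cultures below, the controls. Neither difference from control reached the fold threshold, at 0.60 (SE 0.18, edgeR adjusted p = 0.0171) for VWF and -0.86 (SE 0.18, edgeR adjusted p = 0.00152) for LPS. The direct difference of VWF from LPS was called, at 1.49 (SE 0.19, edgeR adjusted p = 8.31e-05). Under library size scaling the LPS value was -1.41 and was called as lower, and the VWF value was 0.38 and no longer passed the adjusted p of edgeR (0.113).

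At 16 h Nlrc4 had 9.84, 11.8, 13, 12.5 and 7.65 CPM in controls, 14.8, 14.4, 18.6, 10.7 and 14.9 CPM with VWF, and 32, 28.1, 32.5 and 19.4 CPM with LPS. LPS cultures were now above all others. LPS against control was 1.32 (SE 0.19, edgeR adjusted p = 0.000271), and 0.75 and not called under library size scaling. VWF against control was 0.31 (SE 0.17, interval -0.03 to 0.64, edgeR adjusted p = 0.232). VWF against LPS was -0.96 (SE 0.18, edgeR adjusted p = 0.00119), just short of the fold threshold, and was called at -1.10 without LPS replicate 4 or at -1.04 without VWF replicate 3. Under library size scaling it was -0.51 and did not pass the adjusted p of edgeR (0.0605). Within LPS cultures Nlrc4 rose 5.18-fold from 3.5 h to 16 h (log2 fold change 2.37, SE 0.20, edgeR adjusted p = 1.36e-05), whereas with VWF the difference between the times was -0.08 (SE 0.17, edgeR adjusted p = 0.697).

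Pycard encodes ASC, the adaptor that links sensors to caspase-1. Its SD in control cultures at 16 h was the largest of the 7 genes (56.4 ± 26.6 CPM, n = 5). At 3.5 h the controls had 30.6, 27.6, 37.4, 19.3 and 22.5 CPM, the VWF cultures 31.7, 36.6, 46, 42.6 and 25.1 CPM, and the LPS cultures 55, 38.3, 51.3 and 53.9 CPM. The LPS cultures were all above the controls, and the VWF cultures overlapped both. VWF against control was 0.32 (SE 0.19, interval -0.06 to 0.70, edgeR adjusted p = 0.226) and LPS against control 0.80 (SE 0.19, edgeR adjusted p = 0.00297), below the fold threshold. Under library size scaling the LPS value was 0.28 and did not pass the adjusted p of edgeR (0.177). VWF differed from LPS by -0.47 (SE 0.17, edgeR adjusted p = 0.038). At 16 h the controls had 45.2, 42.1, 45.2, 45.7 and 104 CPM, the VWF cultures 64.1, 79.3, 61.9, 107 and 70.2 CPM, and the LPS cultures 30.6, 44.8, 33.1 and 84.1 CPM. The highest values of the control and LPS groups belong to the 2 cultures that stood apart. No difference between treatments was called at 16 h, with 0.32 for VWF against control, -0.27 for LPS against control and 0.64 for VWF against LPS (edgeR adjusted p of 0.467, 0.592 and 0.0995). Under library size scaling VWF against LPS was 1.12 and was called (edgeR adjusted p = 0.0043), and LPS against control was -0.82 (edgeR adjusted p = 0.0464). Without those cultures the VWF and LPS differences from control were 0.67 and -0.33, and that of VWF from LPS 1.06 (edgeR adjusted p of 0.00503, 0.0242 and 0.00164), the last of which was then called.

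Casp1 encodes caspase-1, the protease of the canonical inflammasome. At 3.5 h it had 64.2, 67.3, 75.9, 61.3 and 69.9 CPM in controls, 138, 178, 189, 199.9 and 172 CPM with VWF, and 308, 374, 418 and 423 CPM with LPS. The groups did not overlap. The log2 fold change was 1.29 (SE 0.09) for VWF, 2.45 (SE 0.10) for LPS and -1.13 (SE 0.11) for VWF against LPS, with edgeR adjusted p of 3.75e-07, 3.46e-09 and 1.29e-05. The last value was -0.84 and not called under library size scaling. At 16 h Casp1 had 76.5, 79.7, 92.2, 86.8 and 55.7 CPM in controls, 117, 126, 133, 110.3 and 134 CPM with VWF, and 692, 758, 695 and 641 CPM with LPS. The groups again did not overlap. VWF against control was 0.56 (SE 0.12, edgeR adjusted p = 0.00619), or 1.47-fold, and LPS against control 3.12 (SE 0.14, edgeR adjusted p = 1.17e-07), or 8.71-fold. VWF against LPS was -2.52 (SE 0.09, edgeR adjusted p = 3.15e-08).

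Casp4 encodes caspase-11, the LPS receptor of the noncanonical pathway. At 3.5 h it had 22.3, 26.2, 22.3, 22.4 and 23.4 CPM in controls, 117, 162, 168, 162 and 154 CPM with VWF, and 230.2, 266, 295 and 278 CPM with LPS. Every treated culture was far above every control, and the VWF and LPS groups did not overlap. The log2 fold change was 2.62 (SE 0.10) for VWF and 3.47 (SE 0.10) for LPS, with edgeR adjusted p of 4.57e-09 and 2.71e-10. VWF against LPS was -0.82 (SE 0.10, edgeR adjusted p = 6.3e-05), short of the fold threshold. At 16 h the controls had 14, 15, 18.1, 17 and 7.99 CPM, the VWF cultures 27.2, 29.6, 31.6, 25.6 and 32 CPM, and the LPS cultures 233, 248, 229 and 170.1 CPM. The groups did not overlap, and LPS against control was 3.90 (SE 0.23, edgeR adjusted p = 6.49e-07), or 14.9-fold. For LPS the difference between the times was small (-0.21, SE 0.12, interval -0.46 to 0.03, edgeR adjusted p = 0.158), while with VWF Casp4 fell by 2.33 on the log2 scale (SE 0.10, edgeR adjusted p = 7.21e-09). Every VWF culture remained above every control at 16 h, by 0.91 on the log2 scale (SE 0.19, edgeR adjusted p = 0.0042), and below every LPS culture, by -2.94 (SE 0.12, edgeR adjusted p = 7.05e-08).

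Gsdmd encodes gasdermin D, the pore-forming substrate of both caspases. At 3.5 h it had 75.7, 75.7, 85.2, 74.2 and 77.4 CPM in controls, 139.8, 148, 156, 166 and 143 CPM with VWF, and 162, 215, 209 and 213 CPM with LPS. Treated cultures were all above the controls, and the VWF and LPS groups overlapped through the lowest LPS culture. The log2 fold change was 0.87 (SE 0.06, edgeR adjusted p = 4.37e-07) for VWF and 1.32 (SE 0.09, edgeR adjusted p = 2.93e-07) for LPS, and the latter was 0.78 and not called under library size scaling. The direct difference of VWF from LPS was -0.42 (SE 0.09, edgeR adjusted p = 0.00343), and -0.12 under library size scaling (edgeR adjusted p = 0.245). At 16 h Gsdmd had 72, 73.1, 79.4, 78.1 and 44.3 CPM in controls, 116, 131, 127, 109 and 125 CPM with VWF, and 272, 306, 280.1 and 228 CPM with LPS. None of these groups overlapped. The difference from control was 0.70 for VWF (SE 0.14, edgeR adjusted p = 0.00395) and 1.93 for LPS (SE 0.16, edgeR adjusted p = 6.57e-06). VWF against LPS was -1.19 (SE 0.10, edgeR adjusted p = 3.28e-06), and -0.73 and not called under library size scaling.

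**Figure D2:**
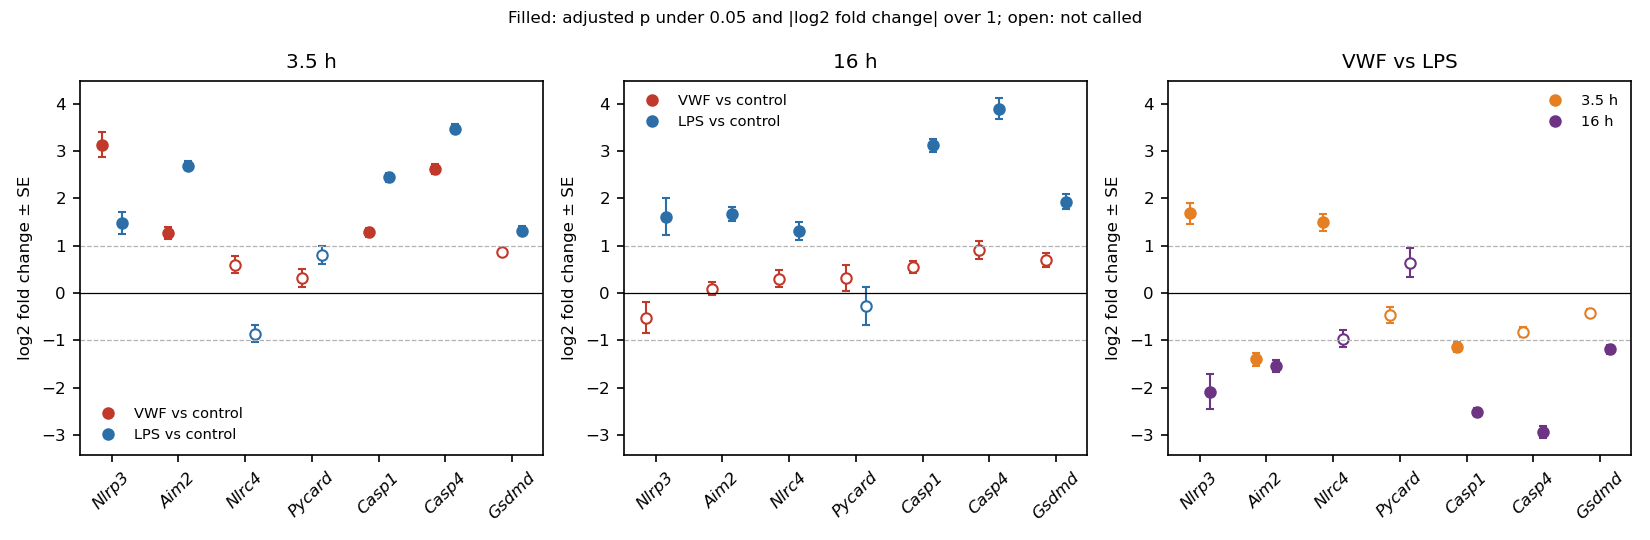
Log2 fold change with its SE of each gene for VWF and LPS against control at 3.5 h and at 16 h, and for VWF against LPS at both times, with filled points for called genes and dashed lines at a fold of 2. Nlrp3 and Nlrc4 lay above 0 for VWF against LPS at 3.5 h and below 0 at 16 h, and the caspases lay below 0 at both times.

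Whether each treatment effect changed with time was tested as an interaction. For VWF against control, 3 of 7 members were called, all with a smaller effect at 16 h, where 13.5% of 8660 genes were called and 7.77% were called lower. The changes were -3.61 for Nlrp3 (SE 0.43, edgeR adjusted p = 1.7e-06), -1.68 for Casp4 (SE 0.20, edgeR adjusted p = 2.09e-06) and -1.14 for Aim2 (SE 0.18, edgeR adjusted p = 6.46e-05). Casp1 changed in the same direction below the fold threshold (-0.70, SE 0.14, edgeR adjusted p = 0.000784), and for Gsdmd the change was -0.14 with an interval from -0.42 to 0.15 (edgeR adjusted p = 0.538). Without control replicate 5 at 16 h the Gsdmd change was -0.27 and passed the adjusted p of edgeR (0.0083). For LPS, 2 of 7 were called, against 26.3% of 8748 genes. The effect on Nlrc4 rose by 2.21 (SE 0.27, edgeR adjusted p = 4.39e-06) and that on Aim2 fell by 1.00 (SE 0.18, edgeR adjusted p = 0.000156). The Aim2 value sits at the fold threshold, and it was -0.99 and no longer called without the 2 cultures that stood apart. Leaving out single cultures lowered it to between -0.92 and -0.99 and ended the call for control replicates 1, 2 and 3 and LPS replicates 2, 3 and 4 at 3.5 h, and for control replicates 3 and 4 and LPS replicate 4 at 16 h. The change for Pycard was -1.07 (SE 0.46, edgeR adjusted p = 0.0647), and it passed both thresholds without the 2 cultures that stood apart (-1.12, edgeR adjusted p = 0.00103). Casp1 and Gsdmd passed the adjusted p below the fold threshold (0.69, SE 0.16, and 0.63, SE 0.18, with edgeR adjusted p of 0.00142 and 0.00704).

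The difference between VWF and LPS changed with time in 5 of 7 members, against 25% of 8217 genes. It changed by -3.79 for Nlrp3 (SE 0.45, edgeR adjusted p = 2.46e-06), -2.48 for Nlrc4 (SE 0.27, edgeR adjusted p = 7.74e-07), -2.14 for Casp4 (SE 0.15, edgeR adjusted p = 4.89e-09) and -1.40 for Casp1 (SE 0.13, edgeR adjusted p = 1.65e-07). For Pycard it changed the other way, by 1.08 (SE 0.37, edgeR adjusted p = 0.0221). The Pycard call was lost, at 0.92 to 0.98, on leaving out LPS replicate 1 or 3 at 16 h, VWF replicate 5 at 3.5 h or VWF replicate 4 at 16 h, each alone, and the value was 1.52 (edgeR adjusted p = 0.000195) without LPS replicate 4 at 16 h. The change for Gsdmd was -0.79 (SE 0.12, edgeR adjusted p = 2.92e-05), below the fold threshold.

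**Figure D3:**
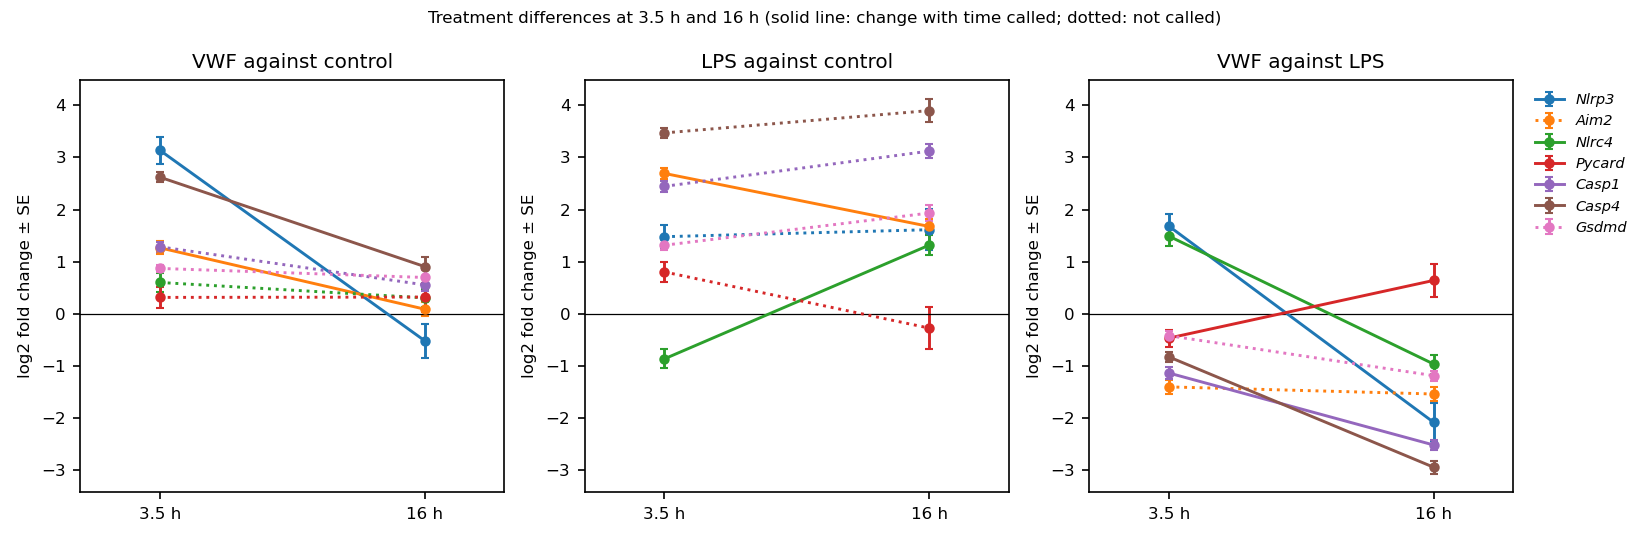
Log2 fold change with its SE at 3.5 h and 16 h for both treatments against control and for VWF against LPS, 1 line per gene, solid where the change with time was called and dotted where it was not. The VWF effects on Nlrp3, Casp4 and Aim2 shrank, the LPS effect on Nlrc4 turned from -0.86 to 1.32, and for VWF against LPS Nlrp3 and Nlrc4 crossed 0.

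The 2 times were also compared within each treatment. Between 3.5 h and 16 h in PBS, Nlrp3 fell by 1.17 on the log2 scale (SE 0.31, edgeR adjusted p = 0.0121) and Pycard rose by 1.11 (SE 0.30, edgeR adjusted p = 0.0133), so that 2 of 7 were called, against 9.08% of 8333 genes. Neither call remained without control replicate 5 at 16 h, with values of -0.96 and 0.74, or without control replicate 4 at 3.5 h, with values of -0.94 and 0.99. With VWF 4 of 7 were called, against 21.4% of 7927 genes, namely Nlrp3, Casp4 and Aim2 lower and Pycard higher (1.13, SE 0.19, edgeR adjusted p = 0.000248). The Pycard value was 0.97 and not called without VWF replicate 4 at 16 h. With LPS 2 of 7 were called, against 28.1% of 6987 genes, namely Nlrc4 higher and Nlrp3 lower (-1.01, SE 0.34, edgeR adjusted p = 0.0283). The Nlrp3 call with LPS was lost on leaving out any 1 of LPS replicates 2, 3 and 4 at 3.5 h or 2 and 4 at 16 h, over which the value ranged from -0.75 to -1.05. Aim2 and Casp1 with LPS lay just short of the fold threshold (-0.98, SE 0.12, and 0.94, SE 0.11, with edgeR adjusted p of 0.000135 and 6.66e-05). Aim2 was called, at -1.01 to -1.05, under library size scaling, filterByExpr, no low-count filter or all groups in one fit, and without replicate 1 at either time.

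Within groups, Pycard and Nlrp3 moved in opposite directions together with the ribosomal protein genes. The median of 75 such genes was compared with its group median in each culture. Pycard was highest where that median was highest in 5 of 6 groups and lowest where it was lowest in 5 of 6. Nlrp3, and likewise Nlrc4, was lowest where it was highest in 4 of 6 groups and highest where it was lowest in 4 of 6. How many of all genes match in this way was not counted. In control replicate 5 at 16 h the ribosomal protein genes were 0.85 above the group median on the log2 scale, Pycard 1.20 above and Nlrp3 1.49 below, and the macrophage gene Cd68 had 197 CPM against 742 to 864 CPM in the other controls. In LPS replicate 4 at 16 h the corresponding values were 0.71 above for the ribosomal protein genes, 1.13 above for Pycard and 1.44 below for Nlrp3. The deviation of this median was also used as a covariate, chosen after the data had been seen. The VWF effect at 3.5 h was then 3.12 for Nlrp3, 1.27 for Aim2 and 2.62 for Casp4. The LPS effects at 16 h were 1.58, 1.67 and 3.92, and each of these was called. Since the covariate is taken from each culture's own group median, it can take up little of a difference between groups. These calls are therefore no check on the treatment effects. With the covariate the control difference between the times lost both calls, at -0.87 for Nlrp3 and 0.73 for Pycard.

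**Figure D4:**
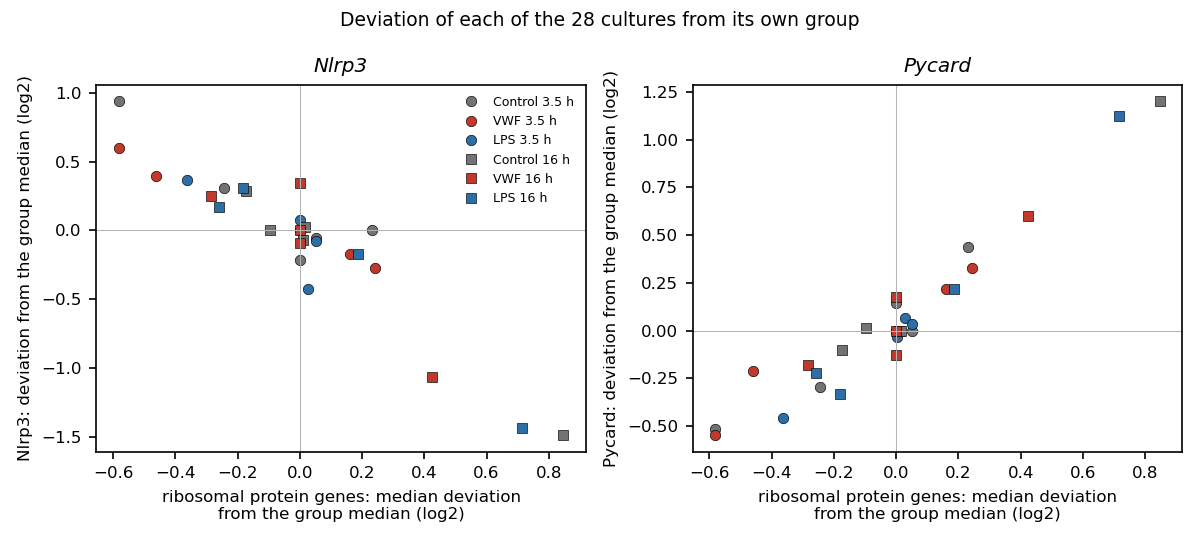
Deviation of Nlrp3 (left) and Pycard (right) from the group median against the median deviation of 75 ribosomal protein genes, all on the log2 scale, 1 point per culture in the 6 groups. Control replicate 5 and LPS replicate 4 at 16 h lie farthest to the right, at 0.85 and 0.71, with the lowest Nlrp3 and the highest Pycard deviations.

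The order of the group levels differed between genes. Nlrp3 was highest with VWF at 3.5 h (602 ± 159 CPM, n = 5), followed by LPS at 3.5 h (186 ± 41.6 CPM, n = 4), LPS at 16 h (88 ± 37.6 CPM, n = 4) and control at 3.5 h (65.1 ± 23.2 CPM, n = 5), and the last 2 of these overlapped. Casp1 and Gsdmd shared another order, with LPS at 16 h highest, then LPS and VWF at 3.5 h, then VWF at 16 h, and the controls lowest and overlapping each other. For Gsdmd the LPS and VWF groups at 3.5 h overlapped. Casp4 and Aim2 were highest with LPS at 3.5 h (267 ± 27.4 and 160.1 ± 21.4 CPM, n = 4). LPS at 16 h came next for both, overlapping LPS at 3.5 h for Casp4 and VWF at 3.5 h for Aim2. Nlrc4 was lowest with LPS at 3.5 h (5.66 ± 1.1 CPM, n = 4), without overlap with any other group, and highest with LPS at 16 h (28 ± 6.04 CPM, n = 4). For Pycard each group overlapped its neighbours in the order, from 27.5 ± 7.08 CPM in controls at 3.5 h to 76.4 ± 18.1 CPM with VWF at 16 h (n = 5 each).

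Levels of different genes were compared per kilobase of exon. Casp1 led in 5 of 6 groups, with 45.2 ± 3.75 CPM per kilobase in controls at 3.5 h and 465 ± 32 with LPS at 16 h. With VWF at 3.5 h Nlrp3 was above it, at 148 ± 39.3 against 117 ± 15.7 CPM per kilobase. The ranks below depend on the transcript assumed: with the longest protein-coding transcript of 1435 bases in place of 3710 bases of exon, Casp4 moved from the last but 1 rank to the third in controls at 3.5 h. The level of Casp4 as a percentage of Casp1, both per kilobase of exon, was 14 ± 1.44% in controls at 3.5 h, 35.2 ± 1.61% with VWF and 28.5 ± 1.5% with LPS. At 16 h it was 7.31 ± 0.884% in controls, 9.48 ± 0.119% with VWF and 12.7 ± 1.33% with LPS. The VWF cultures at 3.5 h, at 32.8 to 36.8%, thus all exceeded the LPS cultures, at 26.5 to 30.1%, although both genes were higher with LPS. The percentages scale with the lengths assumed: with the 1435-base transcript Casp4 had 16.3, 106 and 186 CPM per kilobase in control, VWF and LPS cultures at 3.5 h, against 45.2, 117 and 254 for Casp1. This ratio was chosen after its values had been seen and is given without a test.

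Beyond the 7 members, 38 further genes of the pathway were taken by role. Of these, 10 (Nlrp1a, Nlrp1b, Nlrp6, Nlrp10, Nlrp12, Naip1, Naip6, Casp12, Gsdma and Gsdme) reached the expression filter in no treatment comparison against control. At 3.5 h, VWF called 13 of 26 tested genes higher and 1 lower, against 9.1% and 5.59% of all genes, and LPS 15 of 26 higher and 2 lower, against 12.8% and 11.8%. At 16 h, VWF called 8 of 25 higher and 1 lower, against 4.55% and 4.15% of all genes, and LPS 18 of 28 higher and none lower, against 15.3% and 12.4%. Counts by role share these backgrounds. The medians of the log2 fold changes were 0.89, 2.45, 0.42 and 1.63 in that order. Genes near 0 in controls, such as Il1a (0.568 CPM at 3.5 h) and Gbp5 (1.03 CPM), pass the filter only through treated cultures. They are thus tested only where they rise, and the tested genes differ between comparisons. These counts and medians therefore describe the tested genes and are not a test of the list. VWF against LPS at 16 h called 18 of 28 genes lower and none higher, against 14.5% and 11.1% of all genes.

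Among the other sensors, Mefv, which encodes pyrin, shared with Nlrp3 a higher level with VWF than with LPS at 3.5 h. It had 1.9 ± 0.768 CPM in controls (n = 5), 52.7 ± 6.35 CPM with VWF (n = 5) and 20.8 ± 3.95 CPM with LPS (n = 4) at 3.5 h, and VWF against LPS was 1.33 (SE 0.15, edgeR adjusted p = 3.43e-05). At 16 h it was 15.2 ± 4.78 CPM with VWF and 49.7 ± 10.9 CPM with LPS (-1.74, SE 0.24, edgeR adjusted p = 0.000169). Controls then had 0.873 CPM, and VWF was still called higher than control (3.99, SE 0.67). Naip2, the partner of Nlrc4 that binds a secretion system rod protein, was 1.00 higher on the log2 scale with VWF at 3.5 h (SE 0.19, edgeR adjusted p = 0.00112), at the fold threshold. At 16 h it was 1.24 higher with VWF (SE 0.19, edgeR adjusted p = 0.000662) and 1.60 higher with LPS (SE 0.23, edgeR adjusted p = 0.000272). With LPS at 3.5 h Naip2 was not called, and 4.44% of its transcript windows recur in Naip3. Zbp1, a sensor of Z-form nucleic acid, rose by 2.68 with VWF and 4.71 with LPS at 3.5 h (SE 0.19 and 0.18), and by 3.59 and 5.32 at 16 h (SE 0.18 and 0.16). Thus 3 of the 4 other sensors tested were called higher with VWF at either time, against 9.1% of all genes at 3.5 h and 4.55% at 16 h. With LPS it was 2 and 3 of 4, against 12.8% and 15.3%. Naip5 was called in no comparison with control.

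All 3 cytokine genes on the list, Il1a, Il1b and Il18, were called higher with both treatments at 3.5 h. Il1a rose by 8.68 with VWF and 9.65 with LPS (SE 0.27 and 0.34), with 11.2% of its exon length overlapping Gm14023 on the opposite strand. Il1b had 1202 ± 397 CPM with VWF and 1354 ± 397 CPM with LPS at 3.5 h, a difference of -0.19 (SE 0.24, edgeR adjusted p = 0.533). At 16 h it had 14.9 ± 4.02 against 1153 ± 163 CPM. Controls at 16 h had 2.51 CPM, and VWF was still called higher than control (2.45, SE 0.49). Il18, whose product is matured by caspase-1 as IL-1β is, had 9.34 ± 1.97 CPM in controls at 3.5 h. With VWF it had 20.5 ± 4.76 CPM and with LPS 62.7 ± 11.5 CPM, so that VWF was below LPS by 1.63 on the log2 scale (SE 0.16). At 16 h Il18 was 10.8 ± 1.64 CPM with VWF against 11.4 ± 1.63 CPM in controls and 77.4 ± 13.3 CPM with LPS. Casp8, which encodes an initiator caspase, and Ninj1, whose product brings on membrane rupture, were called higher only in the LPS comparison with control at 16 h (1.67 and 1.51). For both genes VWF was also called lower than LPS at 16 h (-1.09 and -1.02).

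The interferon-inducible GTPases Gbp2, Gbp5 and Irgb10 (listed as Gm12250), which act on vacuoles and bacteria, rose by 5.42, 9.47 and 5.56 with VWF and by 7.44, 10.79 and 7.45 with LPS at 3.5 h on the log2 scale. All 3 were called lower with VWF than with LPS at 3.5 h, Gbp5 at -1.30 and Irgb10 at -1.87. Irf1 rose with both (3.00 and 5.06). Irf2, a known transcriptional activator of Gsdmd, and Irf8, known to drive Naip genes, were called higher only in the LPS comparison (2.21 and 2.72). Irf2 had 24.7 CPM in controls, 45 CPM with VWF and 118 CPM with LPS, so it was also higher with VWF, without a call. Of the 13 activators tested at 3.5 h, 4 were called higher and 1 lower with VWF, against 9.1% and 5.59% of all genes. With LPS 6 were called higher and 2 lower, against 12.8% and 11.8%. At 16 h 2 were called higher with VWF, Gbp2 (4.12) and Irgb10 (2.69), against 4.55% of all genes. Gbp5 then had 9.81 CPM with VWF and 0.643 CPM in controls, without a call. With LPS at 16 h 6 of 14 activators were called higher, against 15.3%, among them Ticam1 (1.16), the TLR4 adaptor gene. Nek7, Txnip, Brcc3 and Panx1 were called in no comparison with control. Irf8 had 109 ± 17.7 CPM with VWF and 1033 ± 213 CPM with LPS at 3.5 h, and VWF against control was -0.57 (SE 0.14, edgeR adjusted p = 0.00694). Among receptors and channels at 3.5 h, Tlr4 was called lower with VWF (33.1 ± 7.19 to 16.5 ± 3.25 CPM, -1.08, SE 0.17). It had 22.2 CPM with LPS, without a call. P2rx7, the ATP-gated channel that triggers NLRP3, was called lower with LPS (-1.18, SE 0.22). P2rx7 had 32.1 CPM in controls, 18.3 CPM with VWF and 14.5 CPM with LPS, and VWF against control was not called. The potassium channel gene Kcnk6 was called lower with LPS (-1.81, SE 0.12).

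Of the inhibitors, Trim30a and the pyrin-only genes Pydc3 and Pydc4 (listed as Ifi208 and Ifi213) rose with both treatments at 3.5 h, by 2.12, 4.80 and 4.04 with VWF and by 3.84, 7.52 and 5.78 with LPS. At 16 h Trim30a and Pydc4 were still called higher than control, by 1.63 and 4.78 with VWF and by 3.48 and 7.91 with LPS. Pydc3 then had 0.376 CPM in controls and 11.1 CPM with VWF, without a call. With LPS it had 267 CPM and was called higher than control (9.40, SE 0.37). Pstpip1, whose product binds pyrin, was called higher with LPS at 3.5 h and 16 h (1.15 and 1.90). Serpinb1a encodes an inhibitor of inflammatory caspases. It increased with time in PBS from 1.25 ± 0.259 to 11.9 ± 2.4 CPM (n = 5, log2 fold change 3.30, SE 0.20, edgeR adjusted p = 2.19e-06), reached 14.6 ± 6.58 CPM with LPS at 16 h (n = 4), and stood at 0.153 ± 0.124 CPM with VWF at 16 h (n = 5). VWF against control at 16 h was -6.43 (SE 0.49, edgeR adjusted p = 5.48e-06), the largest fall among the pathway genes tested in that comparison.

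**Figure D5:**
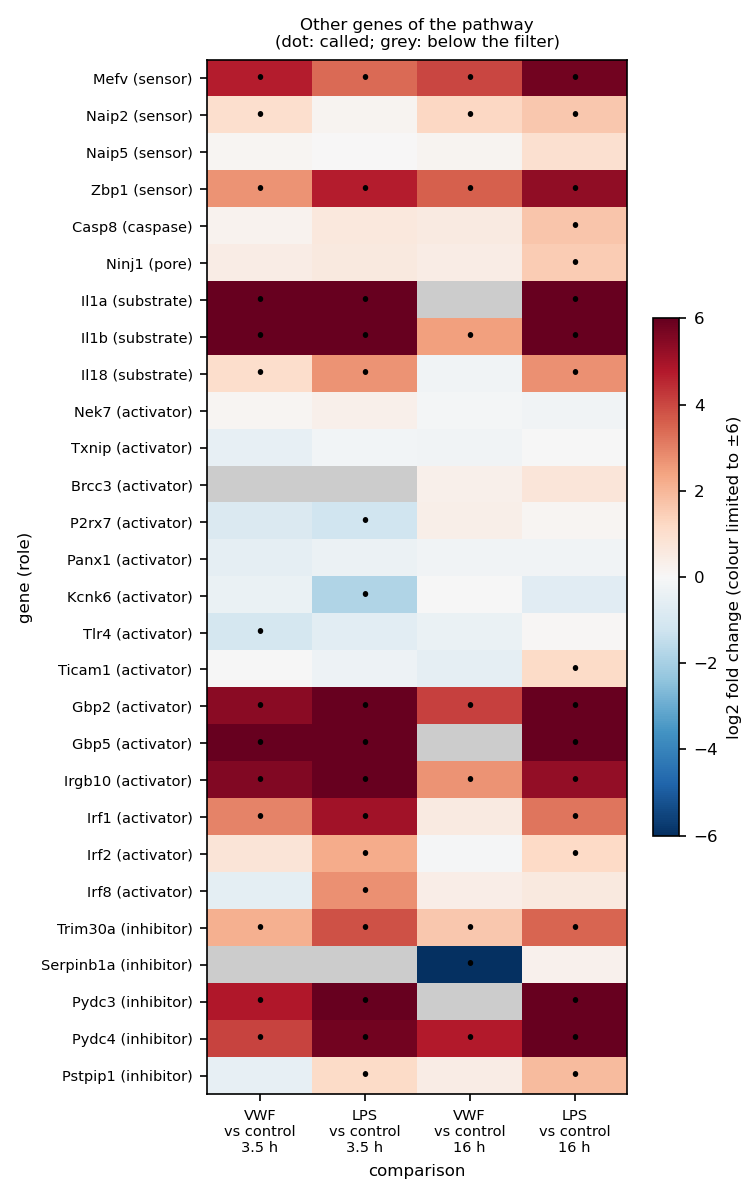
Log2 fold change (colour, limited to ±6) of the 28 other pathway genes tested in at least 1 comparison with control, grouped by role, for VWF and LPS at 3.5 h and 16 h, with dots on called genes and grey where the gene was below the filter. VWF had 13 genes called higher at 3.5 h and 8 at 16 h, and LPS had 15 and 18.

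For each member, the 3 genes with the nearest profile of group mean log2 CPM over the 6 groups were sought among 8867 genes, by the root mean square distance after centring. Nlrp3 had the most distant neighbours, Hivep3 (0.40), Dcbld2 (0.44) and Pstpip2 (0.45). Hivep3 had 206 CPM with VWF and 96.2 CPM with LPS at 3.5 h, and 7.77 and 23.8 CPM at 16 h. The nearest genes to Aim2 were Ccdc25 (0.05), Ifi207 (0.06) and Ptpn2 (0.12), and those to Nlrc4 were Hbp1 (0.14), Tsc22d4 (0.16) and Slc8b1 (0.24), the last replaced by Gm8034 (0.21) under library size scaling. Casp1 was followed by Slc25a22 (0.19), Tap2 (0.22) and Psmb10 (0.23), and Casp4 by Fcrlb (0.24), Gca (0.26) and Nupr1 (0.26). With a prior count of 0.5 Fcrlb left the 3 nearest to Casp4, and Slfn2 (0.27) entered. Gsdmd had Morc3, Sppl2a and Mvp, and Pycard 1110008P14Rik, Eef1akmt1 and Guca1a, each at 0.14. No member was among the 3 nearest genes of another.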

How the data were processed

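RNA-seq was performed on 28 BMDM cultures, read as pairs of 150 bases. Per the submitters' processing notes, reads were aligned with STAR to GRCm38 (mm10), and the authors deposited raw counts per gene, whole numbers without normalization. The annotation, the strand setting and the treatment of reads with several alignments were not given in the sources used here. The study's own test was DESeq2.

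From these counts, edgeR quasi-likelihood tests (edgeR 4.0.16, limma 3.58.1, R 4.3.3, robust, TMM factors, two-sided) were fitted on the whole table with the groups of each comparison. Fold changes used the default prior count of edgeR, and a prior count of 2 was used for log2 CPM values. The p values were adjusted by Benjamini-Hochberg over all genes tested. Genes had to reach 10 TPM, from GENCODE M21 exon lengths, in at least 1 culture compared. Calls required an adjusted p under 0.05 and an absolute log2 fold change over 1. Changes of an effect with time were interaction terms. Total counts were 41131209 to 77699206 per culture (median 52986574), and TMM factors 0.745 to 0.849 with LPS and 0.899 to 1.24 in the other groups. Same-group cultures differed beyond counting noise in all 52 pairs (chi-square per degree of freedom at least 17.1).

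All 7 genes are described. Of the 38 further pathway genes, those called against control are given with values, though not for every comparison, and the others by count or in a clause. The pathway list as first drawn up had 2 more genes, which are not reported here and are left out of its counts. The members and lists were chosen with earlier results of these data known. Irgb10, Pydc3 and Pydc4 were found through RefSeq synonyms as Gm12250, Ifi208 and Ifi213. Genes alike in profile were ranked by the root mean square distance of centred group mean log2 CPM over the 6 groups, among 8867 genes reaching 10 TPM. RefSeq promoters matched 6 of 7 members (not Gsdmd). The scripts were tested on simulated data.

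Alternatives were DESeq2 1.42.0, median-of-ratios factors, library size scaling, filterByExpr, no filter, all groups in one fit, no fold threshold, the replicate block and omission of single cultures. Chosen after seeing the data were leaving out the 2 cultures with a deviation SD over 0.5, a ribosomal protein gene covariate and the longest protein-coding transcript length. Same-numbered cultures deviated together, with every pair's correlation over 0.1, only for VWF against LPS at 16 h (0.159 to 0.781, 4 pairs).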

Additional observations from a re-analysis of the deposited data

Results flagged for a closer look

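Among 42 combinations of gene and group, 6 held a culture far from the others of its group, where chance gives about 1 in 20 groups. Control replicate 5 at 16 h was high for Pycard (104 CPM) and low for Gsdmd (44.3 CPM), and it is also the culture that deviated most over all genes. VWF replicate 5 at 3.5 h was high for Nlrc4 (22.3 CPM) and VWF replicate 1 at 3.5 h low for Casp4 (117 CPM). Control replicate 2 at 3.5 h was high for Casp4 (26.2 CPM) and LPS replicate 1 at 3.5 h low for Gsdmd (162 CPM).

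Changes of an effect between 3.5 h and 16 h were called in 10 interactions (edgeR, log2 differences). For VWF against control, 3 of 7 members were called, against 13.5% of all genes. They were -3.61 for Nlrp3, -1.14 for Aim2 and -1.68 for Casp4. For LPS against control, 2 of 7 were called, near the 26.3% of all genes. The effect on Aim2 decreased by 1.00 and that on Nlrc4 changed by 2.21. For VWF against LPS, 5 of 7 were called, against 25% of all genes. They were -3.79 for Nlrp3, -2.48 for Nlrc4, 1.08 for Pycard, -1.40 for Casp1 and -2.14 for Casp4. The Aim2 call for LPS and the Pycard call were each lost on leaving out some single cultures.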

How the results depend on the processing

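The number of members called was within 1.5 times the reported count in 232 of 256 recomputed values. Without the fold threshold it was 7 for VWF against LPS at 3.5 h, 3 for VWF against control at 16 h, 5 for LPS between the times and 4 for the change of the LPS effect with time. For controls between the times it was 0, and for LPS between the times 1, with the ribosomal protein gene covariate and also without the 2 divergent cultures. Leaving out single cultures gave 0 to 2 for controls between the times, 1 to 3 for LPS between the times and 1 to 2 for the change of the LPS effect. The replicate block gave 1 for the change of the LPS effect, through Aim2 (-0.99). For VWF against LPS at 16 h, where same-numbered cultures deviated together, the block kept 5 calls. The labels do not say whether the numbers pair the cultures. The cause of these shifts was not tested. The values that changed sign were not called in any of these settings, but Pycard between the times with LPS passed the adjusted p of edgeR alone with the covariate (0.0037) and without the divergent cultures (0.048). Over the omission of single cultures, Pycard for LPS against control at 16 h ranged from -0.71 to 0.094, the latter without control replicate 5. Aim2 between the times in controls was -0.024 with filterByExpr, -0.029 with no filter and -0.031 to 0.11 without single cultures. Gsdmd there was -0.15 to 0.00036 without single cultures, and 0.00036 without the divergent cultures. Nlrc4 between the times with VWF was 0.014 with library size scaling, 0.040 with the covariate and -0.17 to 0.068 without single cultures. Pycard between the times with LPS was -0.074 with library size scaling, -0.035 with all groups in one fit, -0.089 with the replicate block, -0.36 with the covariate, -0.40 without the divergent cultures and -0.40 to 0.19 without single cultures. The change of the VWF effect on Pycard was -0.014 with DESeq2, -0.013 with median-of-ratios factors and -0.16 to 0.38 without single cultures. The change of the LPS effect on Nlrp3 was -0.082 to 0.42 without single cultures, and the change of VWF against LPS for Aim2 was 0.018 with library size scaling. Over all genes, VWF against control at 3.5 h called 1204 genes, 2099 with filterByExpr, 2366 with no filter and 3576 with no fold threshold, and for LPS these were 2010, 3917, 4542 and 5384. At 16 h they were 679, 1362, 1378 and 2163 for VWF and 2210, 4087, 4224 and 4293 for LPS. For VWF against LPS they were 856, 1776, 1942 and 3768 at 3.5 h and 1932, 3897, 4242 and 4586 at 16 h. Between the times they were 757, 1570, 1524 and 3429 in controls, 1694, 3458, 3974 and 5379 with VWF, and 1964, 4116, 4298 and 4257 with LPS. For the change with time they were 1166, 1972, 1904 and 2819 for VWF, 2301, 3790, 3613 and 4267 for LPS, and 2052, 3576, 3528 and 4329 for VWF against LPS. Library size scaling moved the share of calls that were higher from 62% to 48.3% for VWF and from 52.1% to 24.1% for LPS at 3.5 h, and from 55.2% to 25.2% for LPS at 16 h. For VWF against LPS it moved from 41.2% to 69.8% at 3.5 h, from 43.3% to 72.1% at 16 h and from 42.8% to 56.8% for the change with time. Whether the intervals cover the spread between mice is not known from the labels, and the lowest member, Nlrc4, rests on the fewest reads.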
